A study of Xenopus laevis with 25 samples.

Results

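At 12 hours post fertilization (hpf), 3 RNA-seq libraries of Xenopus embryos with the genotype RNF20 morpholino were compared with 2 libraries of wild-type embryos, all made from poly(A)-selected RNA. These 5 libraries, chosen by their titles, belong to a time course of 25 libraries in which the same arms were also sampled at 13, 14, 15 and 16 hpf. The labels give the source as embryo and the treatment as morpholino injection for both arms, and they name no dose, injected cell, control morpholino, clutch or number of embryos per library. No label says that replicates came from separate clutches, so the spread behind each p value is that between libraries, which may be technical.

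Morpholinos are antisense oligomers that block translation or splicing of the RNA they pair with, and they need not lower its amount. RNF20 is a ubiquitin ligase that works with RNF40 to attach ubiquitin to histone H2B in transcribed genes, guided there by the PAF1 complex that travels with RNA polymerase II. In yeast and mammals this mark favours methylation of histone H3 by the Set1/COMPASS and Dot1l enzymes. Over these hours Xenopus embryos pass from gastrulation towards neurulation, when the neural plate, the somitic and cardiac mesoderm and the ciliated epidermis are being laid out. The series title ties the mark to heart development and cilia motility.

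The deposited estimated counts summed to 15498100, 15156400 and 16766000 in the morpholino libraries, against 19051900 and 18667300 in the wild-type libraries. Of 22891 transcripts in the table, 16967 (74.1%) were tested. Mitochondrially encoded transcripts took 1.62%, 1.70% and 2.57% of counts in morpholino replicates 1, 2 and 3, against 1.31% and 1.4% in wild type. Over all tested transcripts, log2 CPM (counts scaled to a common library size with TMM factors) of morpholino replicate 1 correlated with the wild-type libraries at 0.959 and 0.960, with morpholino replicate 2 at 0.952 and with morpholino replicate 3 at 0.919. Replicate 3 correlated with the wild-type libraries at 0.902 and 0.921, and the wild-type libraries with each other at 0.964. Markers of epidermis, neural plate, paraxial mesoderm, endoderm, neural crest and multiciliated cells were looked up as a check of the labelled source: each of the 4 epidermal, 5 neural plate, 4 paraxial mesoderm, 5 endoderm and 5 neural crest markers found in the table was at 1 CPM or more in every library, as were 4 of 5 multiciliated markers, the exception being ccdc78 in morpholino replicate 3. Of 9 markers of differentiated larval or adult tissue, 2 reached that level.

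In morpholino embryos 4 transcripts rose and 4 fell relative to wild type, 8 of 16967 or 0.0472% (0.0236% in each direction; edgeR quasi-likelihood test over all 25 libraries, Benjamini-Hochberg adjusted p under 0.05), and 1355 transcripts (7.99%) had an unadjusted p under 0.05. The 4 that rose were ccng1 (cyclin G1, induced by DNA damage), dedd (a death effector domain protein), riok3 (an atypical kinase that associates with the small ribosomal subunit) and stard7 (a lipid transfer protein that carries phosphatidylcholine to mitochondria). The 4 that fell were rpap3 (a subunit of the R2TP chaperone complex), pdlim7 (an actin-associated scaffold with PDZ and LIM domains), lmnb3 (the lamin of the Xenopus egg and early embryo) and lin54 (the DNA-binding subunit of the MuvB cell cycle complex). In all 8 the arms did not overlap. In bulk RNA of whole embryos, fewer cells that express a gene and less RNA of it per cell cannot be told apart.

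**Figure D1:**
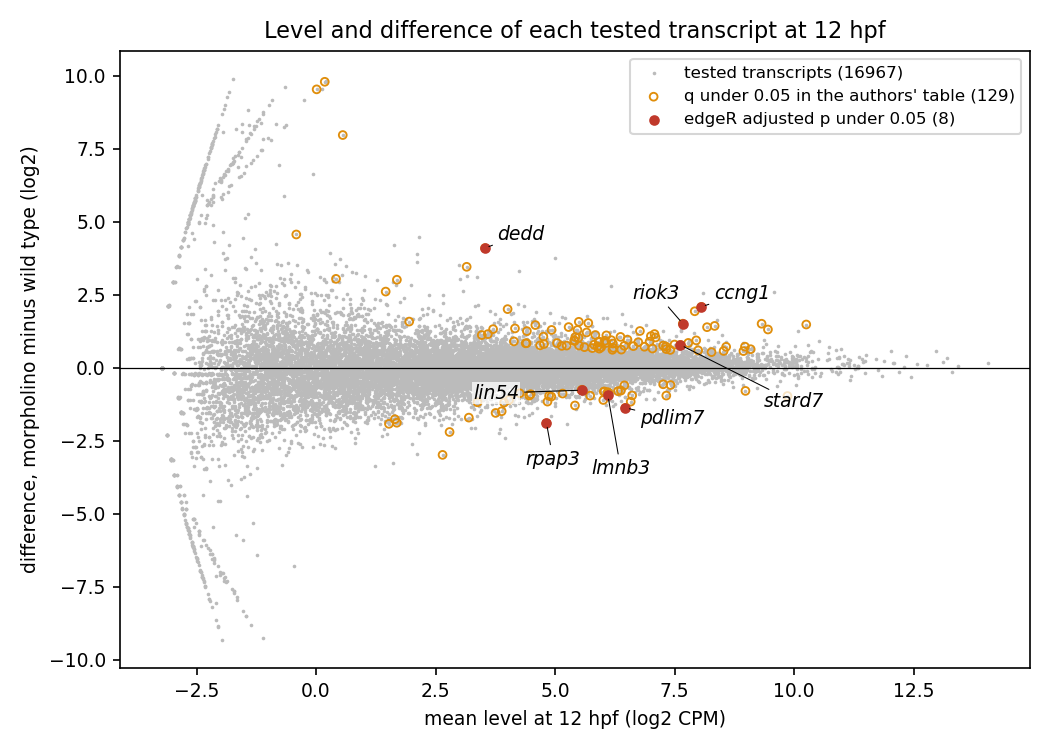
Mean level at 12 hpf (log2 CPM, x axis) against the difference between the arms (log2, morpholino minus wild type, y axis) for the 16967 tested transcripts, with the 8 called by edgeR as filled points and the 129 with q under 0.05 in the authors' deposited table as open circles. The diagonal streaks at low levels are transcripts with no counts in one arm, whose fitted difference depends on the prior count.

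Cyclin G1 had the smallest p. ccng1 stood at 441, 404 and 598 CPM in the 3 morpholino libraries, against 98.6 and 128 CPM in wild type, a log2 difference of 2.09 (SE 0.25, adjusted p = 0.00302, edgeR). The lowest morpholino library was above the highest wild-type library by a wide margin. dedd (transcript ENSXETT00000064877.1) stood at 24.6, 38.2 and 45.7 CPM in morpholino embryos, against 1.81 and 2.40 CPM in wild type, a log2 difference of 4.1 (SE 0.63, adjusted p = 0.0217). The other tested transcript of dedd, ENSXETT00000008305.3, overlapped between the arms at 18.3, 13.5 and 10.1 CPM, against 15.3 and 17.1 CPM. Summed over both transcripts, dedd differed by 1.46 on the log2 scale (adjusted p = 0.0483, edgeR on sums per symbol).

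riok3 stood at 282, 264 and 391 CPM in morpholino embryos, against 105 and 115 CPM in wild type, a log2 difference of 1.51 (SE 0.25, adjusted p = 0.0292, edgeR). For ccng1 and riok3 the highest of the 3 values was that of replicate 3. stard7 differed less but more evenly, with 231, 260 and 242 CPM against 149 and 135 CPM in wild type, a log2 difference of 0.78 (SE 0.14, adjusted p = 0.0431).

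Among the transcripts that fell, rpap3 had the largest difference. It stood at 14.6, 14.5 and 21.2 CPM in morpholino embryos, against 65.4 and 59.8 CPM in wild type, a log2 difference of -1.90 (SE 0.29, adjusted p = 0.0217, edgeR). R2TP works with Hsp90 to assemble RNA polymerases, other large complexes and, in vertebrate ciliated cells, the dynein arms of motile cilia. pdlim7 (ENSXETT00000015737.3) stood at 58.8, 65.2 and 57.7 CPM, against 166 and 148 CPM in wild type, a log2 difference of -1.37 (SE 0.21, adjusted p = 0.0217).

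lmnb3 stood at 48.0, 53.2 and 57.8 CPM in morpholino embryos, against 101 and 102 CPM in wild type, a log2 difference of -0.94 (SE 0.15, adjusted p = 0.0258, edgeR). The other B-type lamins did not pass: the 2 transcripts of lmnb1 differed by 0.54 and 0.55 (adjusted p = 0.725 and 0.662) and were higher in all 3 morpholino libraries. lin54 stood at 36.5, 38.4 and 38.7 CPM, against 62.3 and 66.8 CPM in wild type, a log2 difference of -0.77 (SE 0.13, adjusted p = 0.0358). Its MuvB partners lin9, lin37 and lin52 overlapped between the arms, with differences of 0.04, 0.34 and -0.11 (adjusted p = 0.962, 0.781 and 0.953).

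**Figure D2:**
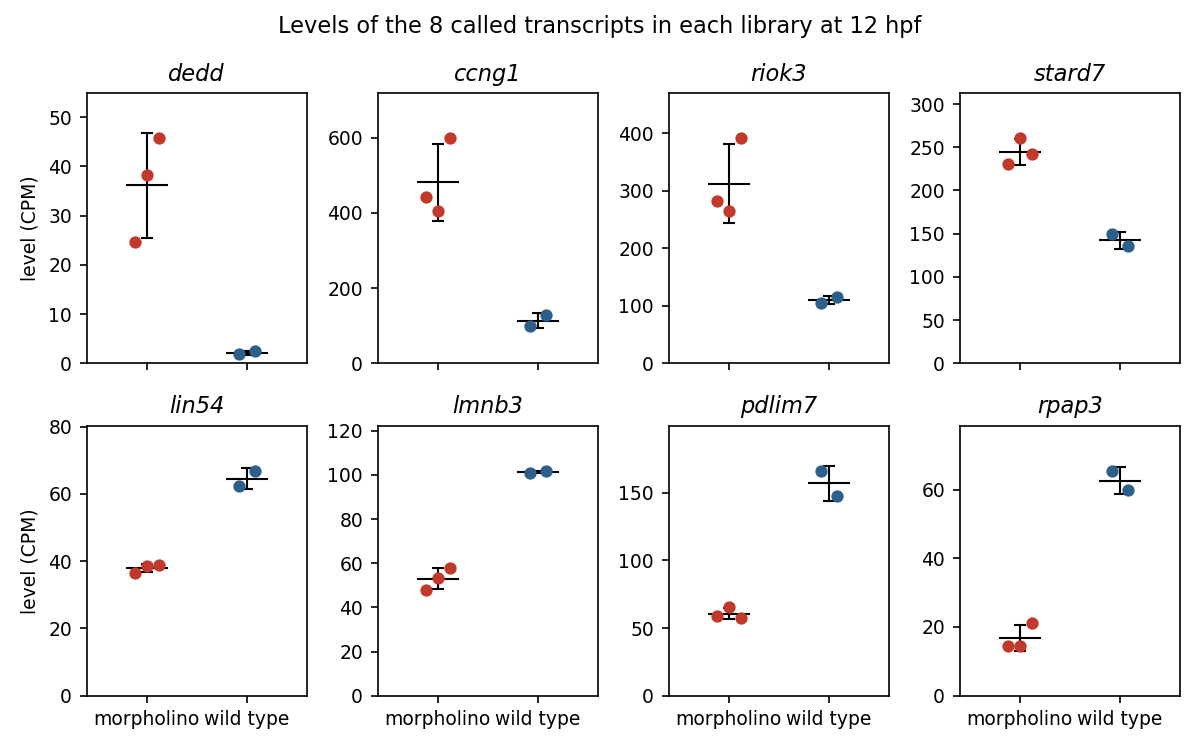
Level in CPM (y axis, from 0) of the 8 called transcripts in each of the 3 morpholino (left) and 2 wild-type (right) libraries; points are libraries, and the bar and whiskers are the mean and SD. The arms are separate in each of the 8 panels, and lmnb3 averaged 53 ± 4.9 CPM in morpholino embryos and 101 ± 0.546 CPM in wild type (SD, n = 3 and 2).

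These calls depend on each library. Without morpholino replicate 1 ccng1 and dedd remained called, without morpholino replicate 2 only ccng1, without morpholino replicate 3 ccng1 and rpap3, without wild-type replicate 2 only ccng1 and without wild-type replicate 1 none, although in those 5 fits the difference of ccng1 stayed between 1.90 and 2.26 and that of rpap3 between -2.10 and -1.81 (adjusted p 0.00452 to 0.158 and 0.0497 to 0.186, edgeR). With the 5 libraries of 12 hpf fitted alone none of the 8 was called (ccng1 adjusted p = 0.411), and DESeq2 over all 25 libraries called 89 transcripts higher and 68 lower (0.526% and 0.402%), all 8 among them.

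The 8 differences were not limited to 12 hpf. The tests of all 5 hours came from 1 fit and share its estimate of spread, so a transcript's calls at several hours are not independent. Of the 8, 7 were also called at each of 13, 14, 15 and 16 hpf, in the same direction; lin54 was called at 14 hpf (-0.74, adjusted p = 0.0321, edgeR) and stood at -0.59, -0.63 and -0.59 at 13, 15 and 16 hpf (adjusted p = 0.102, 0.0896 and 0.0789). Over all transcripts, those hours had 15, 21, 16 and 34 calls (0.0884%, 0.124%, 0.0943% and 0.2%), of which 0.0295%, 0.0648%, 0.0472% and 0.13% of all tested were higher and 0.0589%, 0.0589%, 0.0472% and 0.0707% lower in morpholino embryos. The difference of ccng1 was 1.91 at 13 hpf, 2.0 at 14 hpf, 1.72 at 15 hpf and 1.85 at 16 hpf. That of rpap3 was -1.78 at 13 hpf, -2.25 at 14 hpf, -2.13 at 15 hpf and -1.99 at 16 hpf. The hours share no library, but same-numbered libraries of an arm deviated together from their group means: over transcripts, the deviations of morpholino replicate 3 at 12 hpf correlated with those of replicate 3 at the later hours at 0.260 to 0.535, those of replicate 1 at 0.269 to 0.426 and those of replicate 2 at 0.0274 to 0.177.

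**Figure D3:**
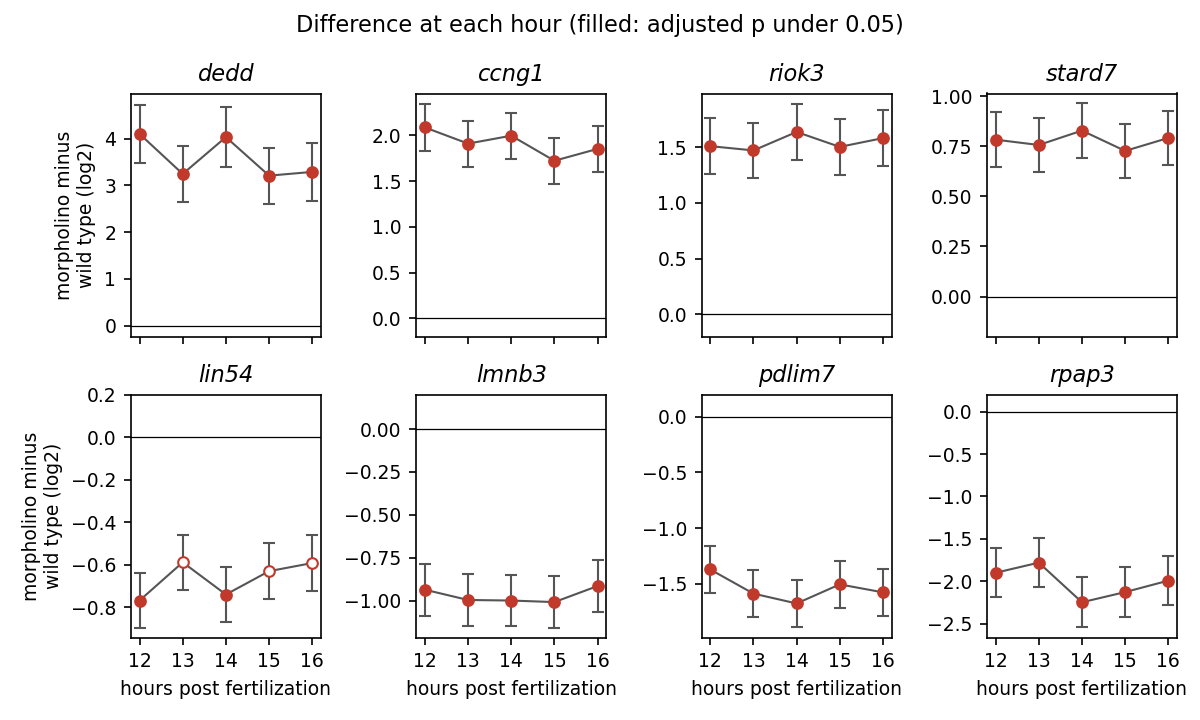
Difference between the arms (log2, morpholino minus wild type, with its SE) at 12, 13, 14, 15 and 16 hpf for the 8 transcripts called at 12 hpf; filled points have an adjusted p under 0.05 in the edgeR test. Each difference keeps the sign it has at 12 hpf, and the 3 open points belong to lin54.

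A test of whether the 12 hpf difference departs from the mean of the 4 later differences called 0 transcripts by edgeR, with 275 (1.62%) at an unadjusted p under 0.05, and 14 (0.0827%) by DESeq2. Each of those 14 was at 0 CPM in at least 1 library of 12 hpf. Of the transcripts whose 3 morpholino libraries all lay above both wild-type libraries at 12 hpf (2764, 16.3% of those tested), 70.4% lay above at 13 hpf too, 55.0% at 14 hpf, 48.2% at 15 hpf and 38.0% at 16 hpf. They made up 48.2%, 48.0%, 45.3% and 49.0% of the transcripts above at those hours, which were 23.8%, 18.7%, 17.3% and 12.6% of all tested. For the 2971 (17.5%) that lay below at 12 hpf, the shares were 68.6%, 53.3%, 50.6% and 45.9% of the 12 hpf set and 45.9%, 45.9%, 40.9% and 42.3% of the sets of the later hours, which were 26.2%, 20.3%, 21.6% and 19% of all tested. Across all 5 hours 584 transcripts lay above and 759 below.

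The targeted gene was not lower in the morpholino libraries. rnf20 stood at 66.6, 77.6 and 101 CPM in morpholino embryos, against 48.5 and 38.2 CPM in wild type, a log2 difference of 0.92 (SE 0.21, unadjusted p = 0.000387, adjusted p = 0.149, edgeR), so all 3 morpholino libraries were higher but this test was not passed. The call depended on the fit: rnf20 passed in 3 of 16 alternative settings, namely with DESeq2 (adjusted p = 0.00318), with a replicate block shared by both arms and without morpholino replicate 3 at any hour, and over the 16 the difference lay between 0.71 and 1.1 (adjusted p 0.00318 to 0.866). The shared block takes up the mean offset of morpholino replicate 3, so it is not separate from leaving that replicate out. At 13 hpf the difference was 0.54, at 14 hpf 0.13, at 15 hpf 0.18 and at 16 hpf -0.20, none of them called, and the 12 hpf difference exceeded their mean by 0.75 (SE 0.23, unadjusted p = 0.00451, adjusted p = 0.999983). Without morpholino replicate 3 of 12 hpf alone, the 12 hpf difference was 0.74 (adjusted p = 0.558). rnf40, the partner of rnf20 in the ligase, stood at 148, 154 and 161 CPM, against 113 and 126 CPM in wild type, a difference of 0.37 (SE 0.20, adjusted p = 0.639).

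Of 28 tested transcripts for H2B ubiquitination and the PAF1 complex, none was called, 9 (32.1%) lay above wild type in all 3 morpholino libraries and 1 (3.57%) below, against 16.3% and 17.5% of all tested transcripts. Their median difference was 0.07, and that of all tested transcripts was 0. Besides the ligase genes, those above were usp7 and usp16 (deubiquitinases), ube2a (a ubiquitin-conjugating enzyme that serves RNF20), leo1 and ctr9 (PAF1 complex), and eny2 and atxn7 (SAGA deubiquitination module). usp7 stood at 271, 279 and 390 CPM, against 222 and 202 CPM in wild type (0.56, adjusted p = 0.556, edgeR). The 1 transcript below was 1 of 2 tested transcripts of wac, an adaptor that links RNF20 to RNA polymerase II. It stood at 84.4, 84.8 and 71.6 CPM against 90.4 and 108 CPM in wild type (-0.31, adjusted p = 0.684, edgeR). The sum over both differed by -0.12 (adjusted p = 0.845, edgeR on sums per symbol). Of 34 transcripts for H3K4 and H3K79 methyltransferases, none was called, 6 lay above and 5 below. Among them 1 of 4 tested transcripts of cxxc1, the CpG-binding subunit of the Set1 complex (ENSXETT00000065724.1), stood at 26.1, 27.6 and 32.1 CPM, against 4.65 and 9.55 CPM in wild type (2.01, SE 0.38, adjusted p = 0.0658). This transcript was called at 13, 14, 15 and 16 hpf, with differences of 2.51, 1.99, 3.39 and 2.74 (adjusted p = 0.0219, 0.04996, 0.00288 and 0.00737). The other 3 transcripts of cxxc1 were more abundant and differed by 0.42, -0.20 and 0.08 at 12 hpf, and the sum over all 4 differed by 0.26 (adjusted p = 0.706, edgeR on sums per symbol).

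Of 50 tested transcripts on the list of DNA damage response and cell death genes, 1 (ccng1) was called. In all 3 morpholino libraries 18 (36.0%) lay above wild type and 6 (12.0%) below, and the median was 0.23. Of all tested transcripts, 0.0472% were called, 16.3% lay above and 17.5% below. Cells answer DNA damage and other stress by arresting the cell cycle or by dying. aen, a nuclease of the apoptotic response, stood at 51.7, 46.2 and 76.9 CPM, against 25.8 and 18.6 CPM in wild type (1.39, SE 0.27, adjusted p = 0.0658, edgeR). eda2r, a receptor of the tumour necrosis factor family, stood at 6.15, 3.70 and 13.2 CPM, against 0.929 and 0.961 CPM in wild type (3.02, SE 0.60, adjusted p = 0.0760).

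Both of these genes passed the test at 14 hpf (1.44 for aen, adjusted p = 0.0447, and 3.51 for eda2r, adjusted p = 0.0321, edgeR) but not at 12 hpf, and aen also passed at 15 hpf. mdm2, a ubiquitin ligase, stood at 121, 124 and 185 CPM for its main transcript, against 86.4 and 93.2 CPM in wild type (0.67, adjusted p = 0.419). Not every gene of the list went this way: cdkn1a, the p21 cell cycle inhibitor, overlapped between the arms (17.4 to 33.0 CPM in morpholino embryos, 19.9 to 26.5 CPM in wild type), and zmat3, an RNA-binding protein, was lower at 10.7, 10.1 and 10.1 CPM, against 15.7 and 15.0 CPM (-0.57, adjusted p = 0.199). The medians of the list over the single libraries were 0.11, 0.21 and 0.50 in morpholino replicates 1, 2 and 3 relative to the wild-type mean, so replicate 3 was the highest.

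The lists for motile cilia contained 1 called transcript, rpap3. Axonemal dyneins are the motors of ciliary beating, and spokes, central pair and nexin links are the structures that coordinate them. Of 24 tested transcripts for dynein arms and docking, 1 lay above wild type and 3 below, with a median of -0.23. Of 81 transcripts for radial spokes, central pair, nexin links and doublets, 6 (7.41%) lay above and 14 (17.3%) below, with a median of -0.33. The shares among all tested transcripts were 16.3% above and 17.5% below. Both lists had a smaller share above than all tested, and neither had a larger share below. The medians of both lists rested on the libraries unequally. They were 0.26 and 0.21 in morpholino replicate 1, -0.30 and -0.45 in replicate 2 and -0.91 and -1.05 in replicate 3, and without replicate 3 the median differences were 0.03 and -0.10. For example, 1 of 2 transcripts of spag6, a central pair protein (ENSXETT00000063406.1), stood at 16.7, 5.03 and 0.597 CPM, against 27.9 and 22.0 CPM in wild type (-1.74, adjusted p = 0.556, edgeR), while the sum over both differed by -0.56. ccdc63, a docking complex protein, stood at 22.1, 11.9 and 8.95 CPM, against 27.6 and 23.6 CPM (-0.84, adjusted p = 0.486).

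Of 21 transcripts for dynein arm assembly and R2TP, 4 (19.0%) lay above and 4 below, with a median of -0.03. Of all tested transcripts, 16.3% lay above and 17.5% below. The other R2TP subunits ruvbl1, ruvbl2 and pih1d1 differed by 0.06, 0.17 and -0.49 for their most abundant transcripts (adjusted p = 0.954, 0.871 and 0.659, edgeR). spag1, which binds Hsp90 and R2TP in dynein arm assembly, had 1 transcript below wild type at 55.7, 45.0 and 39.5 CPM against 72.5 and 72.7 CPM (-0.64, adjusted p = 0.236) and 1 above at 45.9, 37.4 and 49.5 CPM against 28.9 and 32.9 CPM (0.52, adjusted p = 0.401). Regulators of multiciliated cells lay on both sides, 7 above and 7 below of 36. foxj1, the main activator of motile cilia genes, overlapped between the arms at 82.6, 69.8 and 92.0 CPM against 65.3 and 74.6 CPM (0.22, adjusted p = 0.822). pcm1, the scaffold of centriolar satellites, stood at 238, 202 and 237 CPM, against 128 and 132 CPM in wild type (0.80, SE 0.15, adjusted p = 0.0658).

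For heart and cardiac mesoderm, 44 transcripts were tested and none was called. Of these, 3 (6.82%) lay above wild type and 10 (22.7%) below, against 16.3% and 17.5% of all tested, and the median was -0.43. nkx2-5, the early cardiac homeobox gene, stood at 17.5, 13.1 and 5.57 CPM, against 29.9 and 26.5 CPM in wild type (-1.22, SE 0.38, adjusted p = 0.373, edgeR). Its relative nkx2-6, which is not on the list and is expressed in the cardiac and pharyngeal region, stood at 2.75, 2.03 and 0.995 CPM, against 6.61 and 7.63 CPM (-1.88, SE 0.43, adjusted p = 0.145), and the authors' deposited table gives it a q of 0.0435. In that deposited table nkx2-5 has a q of 0.487, and no tested transcript of the heart list has a q under 0.05. nkx2-5 differed by -1.42, -0.66 and -0.51 at 13, 14 and 15 hpf, none of them called. At 16 hpf nkx2-5 and nkx2-6 differed by -0.07 and -0.45. The general cardiac and endodermal factors gata4 and gata6 overlapped between the arms, with differences of -0.06 and -0.11 (adjusted p = 0.976 and 0.951). The median over the heart list was -0.14, -0.39 and -1.0 in morpholino replicates 1, 2 and 3, and -0.25 without replicate 3.

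On the left-right and Nodal list, 31 transcripts were tested and none was called. Of these, 5 (16.1%) lay above wild type and 13 (41.9%) below, against 16.3% and 17.5% of all tested, with a median of -0.18. Nodal signals and cilia-driven flow set the left-right axis on which heart looping depends. Those below include receptors and signal transducers (acvr2b, smad2, smad3), proteins of the flow-sensing cilium (pkd2, invs), bicc1 and the protease furin. The pkd2 transcript, 1 of 2 tested, was near the floor at 0.065, 0 and 0 CPM against 0.826 and 2.61 CPM in wild type. The sum over both pkd2 transcripts differed by -0.36 (adjusted p = 0.682, edgeR on sums per symbol). smad2 had a transcript at 23.6, 21.1 and 24.8 CPM, against 42.9 and 36.8 CPM in wild type (-0.78, adjusted p = 0.403, edgeR), and another at 44.6, 49.2 and 47.9 CPM against 36.8 and 44.3 CPM (0.22, adjusted p = 0.775).

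tdgf1.3, a Nodal co-receptor gene, was the furthest above, at 1.57, 8.80 and 30.8 CPM against 0.413 and 1.07 CPM (4.2, SE 1.36, adjusted p = 0.401, edgeR). The list medians were -0.10, -0.18 and -0.11 in morpholino replicates 1, 2 and 3, and -0.10 for wild-type replicate 1 minus replicate 2.

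Of 54 tested neural crest and placode transcripts none was called, 20 (37.0%) lay below wild type in all 3 morpholino libraries and 1 (1.85%) above, against 17.5% and 16.3% of all tested, and the arms overlapped in the other 33, with a median of -0.14. snai2, which drives crest cells to leave the epithelium, stood at 111, 87.4 and 32.0 CPM, against 123 and 122 CPM in wild type (-0.67, adjusted p = 0.658, edgeR). The crest factors twist1, foxd3 and sox9 had the same order, while tfap2a, another crest and ectodermal factor, ran the other way over the replicates, at 189, 254 and 364 CPM over its 3 transcripts against 194 and 223 CPM in wild type. eya2, a placode coactivator, stood at 40.5, 35.8 and 27.7 CPM, against 44.8 and 47.5 CPM (-0.41, adjusted p = 0.498). The single transcript above was tfap2c, an ectodermal factor, at 708, 867 and 1187 CPM against 554 and 674 CPM (0.58, adjusted p = 0.672).

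Of 74 neural plate, forebrain and proneural transcripts, 24 (32.4%) lay below and 4 (5.41%) above, with a median of -0.25. Of all tested transcripts, 17.5% lay below and 16.3% above. ebf2, which acts after the proneural factors, stood at 27.4, 13.1 and 9.09 CPM, against 44.1 and 32.1 CPM in wild type (-1.2, adjusted p = 0.41, edgeR). On the Hox and Cdx list 8 (15.4%) of 52 lay below, a share under that of all tested, and 1 (1.92%) above, with a median of -0.46. hoxc8, a trunk Hox gene, stood at 67.2, 42.1 and 31.0 CPM, against 88.4 and 73.1 CPM (-0.79, adjusted p = 0.368). The library medians were unequal here too, at -0.24, -0.16 and -0.52 for the neural list, -0.13, -0.12 and -0.41 for crest and placode, and -0.03, -0.61 and -1.05 for Hox and Cdx in morpholino replicates 1, 2 and 3.

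**Figure D4:**
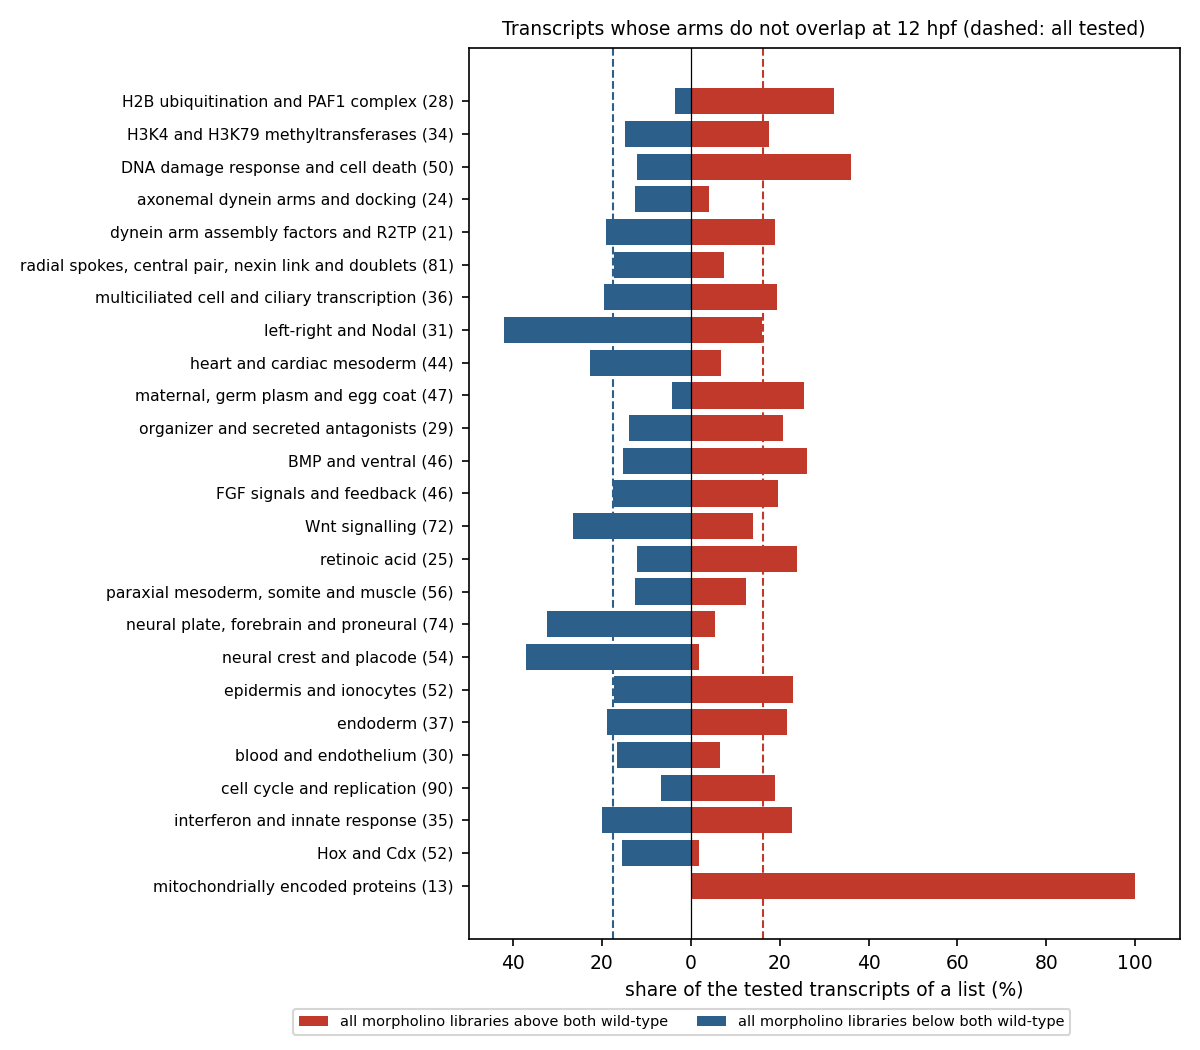
Share of each list's tested transcripts (x axis, percent; number tested in parentheses) whose 3 morpholino libraries all lie above (red, right) or all below (blue, left) both wild-type libraries at 12 hpf; the dashed lines are the shares among all tested transcripts, 16.3% above and 17.5% below. Left-right, neural crest and neural plate transcripts reach furthest to the left, and the 13 mitochondrially encoded ones all lie above.

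Transcripts on the list of maternal, germ plasm and egg coat genes lay above wild type more often than below it. The list also holds the pluripotency factor pou5f3.2. Whether the RNA measured came from the oocyte or from the embryo was not tested. Of 47 tested, none was called, 12 (25.5%) lay above and 2 (4.26%) below, against 16.3% and 17.5% of all tested, and the median was 0.52. vegt, a maternal T-box factor, stood at 60.1, 107 and 317 CPM, against 38.6 and 52.3 CPM in wild type (1.83, adjusted p = 0.586, edgeR). zp4, an egg coat protein, stood at 76.4, 120 and 75 CPM, against 44.8 and 58.9 CPM (0.80, adjusted p = 0.536). trim36, a vegetal maternal ligase, was below in 1 transcript at 74.2, 60.7 and 58.8 CPM against 91.0 and 83.9 CPM (-0.44, adjusted p = 0.271). The list median was 0.11, 0.58 and 0.65 in morpholino replicates 1, 2 and 3, and wild-type replicate 1 lay below replicate 2 by 0.35.

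Transcripts that changed over the later wild-type hours were looked at in the same way. Only transcripts with a mean of at least 1 log2 CPM over the 5 libraries of 12 hpf were taken, a minimum that includes the 3 morpholino libraries. They were sorted by the 8 wild-type libraries of 13 to 16 hpf. Of them, 41 fell between the first 2 and the last 2 hours without overlap and by at least 1 log2 unit, and 28 rose by that rule. At 12 hpf, 17 of the 41 (41.5%) lay above wild type in all 3 morpholino libraries and 2 below, with a median of 0.66, and 8 of the 28 (28.6%) lay below and 2 above, with a median of -0.20. Among the other 12114 transcripts of at least 1 log2 CPM, 19.5% lay above and 17.7% below. The 41 had medians of 0.30, 0.72 and 0.94 in morpholino replicates 1, 2 and 3, against -0.21 for wild-type replicate 1 minus replicate 2. The 28 had medians of 0.15, -0.47 and -0.67, so replicate 1 went the other way, and their median of -0.20 was smaller in size than the 0.27 for wild-type replicate 1 minus replicate 2.

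**Figure D5:**
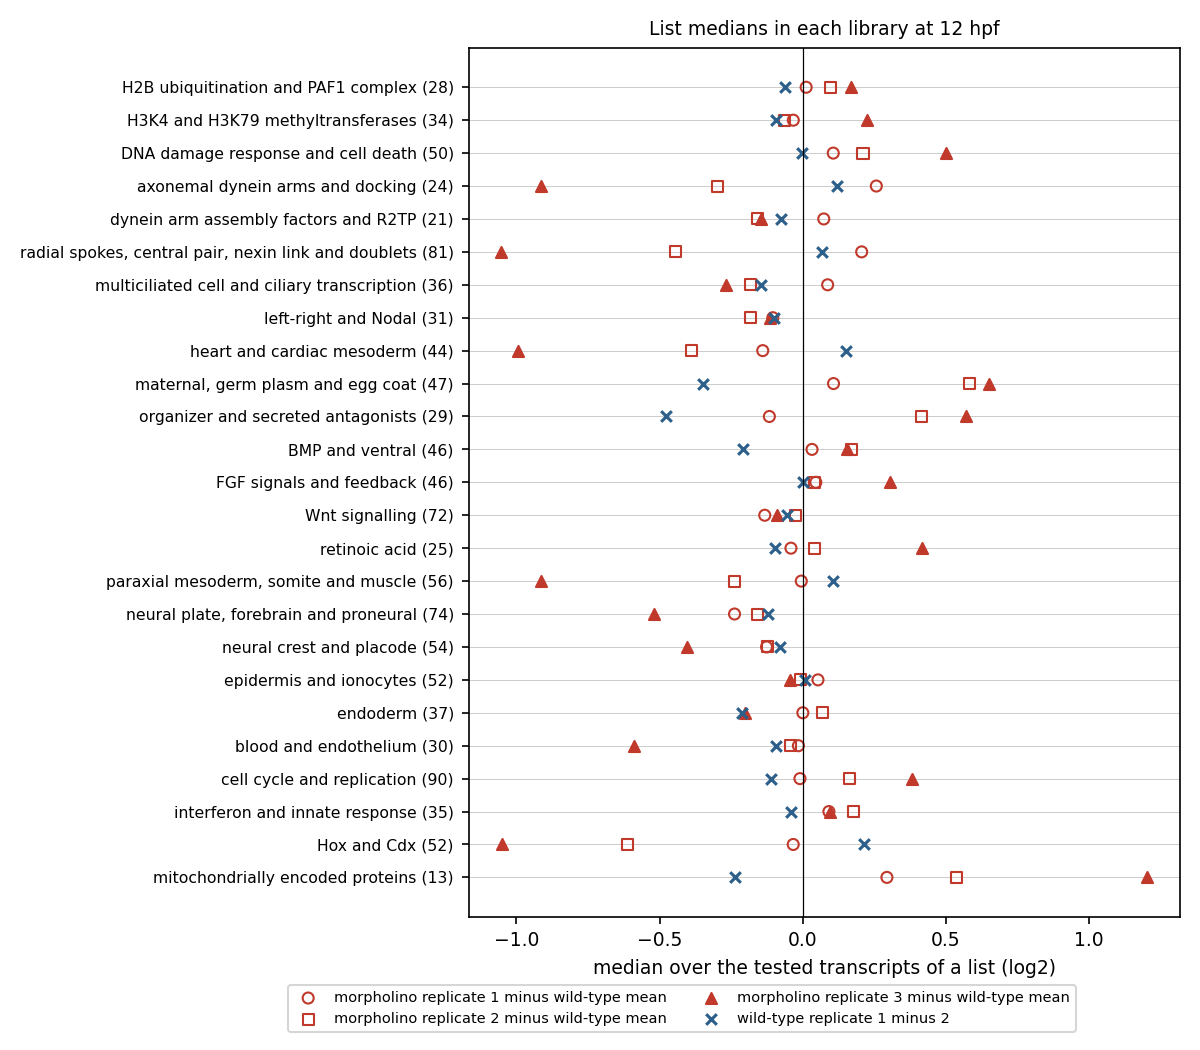
Median log2 difference of each list's tested transcripts (x axis) in morpholino replicates 1, 2 and 3, each relative to the wild-type mean, with the distance between the 2 wild-type replicates as crosses. Replicate 3 is lowest for heart (-1.0), Hox and Cdx (-1.05) and spokes (-1.05) and highest for mitochondrially encoded transcripts (1.2), while the medians of replicate 1 run from -0.24 (neural plate) to 0.29 (mitochondrially encoded).

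All 13 mitochondrially encoded transcripts lay above wild type in the 3 morpholino libraries, against 16.3% of all tested, and none was called. Their median was 0.75, against 0 over all tested transcripts. ND5, a subunit of respiratory complex I, stood at 604, 710 and 1376 CPM, against 426 and 503 CPM in wild type (0.95, adjusted p = 0.626, edgeR). The medians were 0.29, 0.54 and 1.2 in morpholino replicates 1, 2 and 3. The 13 share 1 genome and are not separate observations.

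Several immediate early, cytokine response and early embryonic genes were far higher in morpholino replicate 3 than in the other libraries. fos, an immediate early transcription factor, stood at 3.27, 2.72 and 60.6 CPM, against 1.29 and 1.71 CPM in wild type (3.88, SE 1.08, adjusted p = 0.298, edgeR), and without replicate 3 the difference was 1.0. socs3, an inhibitor of cytokine signalling, had a transcript (ENSXETT00000053080.2) at 8.64, 11.7 and 58.9 CPM, against 3.51 and 2.51 CPM (3.13, SE 0.69, adjusted p = 0.122), and 1.76 without replicate 3, while the sum over its 2 transcripts differed by 1.54. At 13, 14, 15 and 16 hpf fos differed by 1.38, 1.73, 0.17 and 0.33. This socs3 transcript differed by 1.01, 1.07, -0.11 and 0.25 at those hours, and neither was called at any of them. The early mesendoderm genes mixer and mixl1 and the pluripotency factor pou5f3.2 had the same pattern; mixer stood at 7.27, 12.3 and 53.8 CPM, against 1.45 and 4.48 CPM (3.04, adjusted p = 0.556). In each of these genes the value of replicate 3 was several times the next highest.

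Among signalling lists none had a called transcript. dusp6, the phosphatase induced by FGF that dampens ERK, was even over libraries, at 153, 157 and 163 CPM against 102 and 97.3 CPM in wild type (0.66, SE 0.14, adjusted p = 0.1, edgeR). smad6.2, an inhibitory Smad of the BMP pathway that is not on the BMP list, stood at 17.9, 17.9 and 20.3 CPM, against 6.71 and 8.22 CPM (1.32, SE 0.27, adjusted p = 0.0767). It was called at 14 hpf (1.68, adjusted p = 0.0187). On the BMP list the smallest p was that of bmp7.2, which lay above and was uneven, at 10.3, 35.2 and 152 CPM against 5.68 and 7.58 CPM (3.31, adjusted p = 0.563, edgeR). tbx3 came next and lay below (-2.42, adjusted p = 0.626). The lists for BMP, FGF, retinoic acid and the organizer had 12 of 46 (26.1%), 9 of 46 (19.6%), 6 of 25 (24%) and 6 of 29 (20.7%) transcripts above wild type. Below were 7 (15.2%), 8 (17.4%), 3 (12%) and 4 (13.8%), against 16.3% above and 17.5% below of all tested. Their medians were 0.15, 0.18, 0.24 and 0.32, and 0.11, 0.04, 0.01 and 0.15 without morpholino replicate 3. For wild-type replicate 1 minus replicate 2 the medians were -0.21, 0, -0.10 and -0.48.

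The Wnt list had 10 (13.9%) of 72 above and 19 (26.4%) below, against 16.3% and 17.5% of all tested, with a median of -0.13. The smallest p of the list was that of znrf3, which lay above at 38.7, 43.9 and 45.4 CPM against 30.4 and 28.7 CPM in wild type (0.53, adjusted p = 0.373, edgeR). At 14 hpf znrf3 was called (0.86, adjusted p = 0.04996). Among the secreted ligands of the list, wnt11 and wnt4 were the lowest by p, wnt11 at 10.2, 6.77 and 2.98 CPM against 14.7 and 13.6 CPM in wild type (-1.09, adjusted p = 0.542, edgeR). Of 52 epidermal transcripts 12 (23.1%) lay above and 9 below. foxi1, which specifies ionocytes, stood at 128, 148 and 133 CPM, against 78.0 and 70.5 CPM (0.88, SE 0.32, adjusted p = 0.471), and in the authors' deposited table it has a q of 5.71e-05. Paraxial mesoderm had 7 above and 7 below of 56, endoderm 8 and 7 of 37, blood and endothelium 2 and 5 of 30, cell cycle and replication 17 and 6 of 90, and interferon and innate response 8 and 7 of 35.

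Among the transcripts next in line by p, those above wild type included pigt (a subunit of the enzyme that attaches GPI anchors), appl1 (an endosomal adaptor) and dync1i2 (a cytoplasmic dynein intermediate chain). pigt stood at 37.9, 45.5 and 47.2 CPM, against 18.6 and 16.8 CPM in wild type (1.3, SE 0.24, adjusted p = 0.0560, edgeR). Those below included adipor1 (an adiponectin receptor), prkcd (protein kinase C delta), slc27a2 (a very long chain acyl-CoA synthetase), hacl1 (a peroxisomal lyase of fatty acid oxidation) and GFM1 (a mitochondrial translation elongation factor). prkcd stood at 84.0, 81.8 and 60.5 CPM, against 147 and 145 CPM (-0.95, SE 0.19, adjusted p = 0.0661). slc27a2 stood at 1.96, 1.68 and 1.26 CPM, against 5.32 and 7.1 CPM (-1.92, adjusted p = 0.0661). hacl1 stood at 5.04, 3.98 and 3.85 CPM, against 9.96 and 10.6 CPM (-1.26, adjusted p = 0.0661). By mean TPM, which is per length, eef1a1 (translation elongation factor), cirbp (a cold-inducible RNA-binding protein) and hmgb2 (a chromatin protein) were among the 5 most abundant in both arms, with log2 differences of 0.18, 0.08 and -0.03 (adjusted p = 0.854, 0.965 and 0.997).

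Some differences sat between transcripts of a gene. DYNC2H1, the heavy chain of the dynein that returns cargo inside cilia, had 3 tested transcripts. ENSXETT00000061398.1 stood at 13.9, 6.49 and 4.31 CPM, against 0.0516 and 0 CPM in wild type, and ENSXETT00000064271.1 at 8.44, 3.77 and 2.65 CPM against 0 in both. ENSXETT00000063085.1 stood at 0.327, 3.77 and 2.65 CPM, against 17.1 and 18.1 CPM in wild type. Summed over the 3, the difference was -0.19 (adjusted p = 0.905, edgeR on sums per symbol), while its transcripts differed in both directions. Kallisto estimates how reads that fit several transcripts are divided among them; its part in these values was not tested. In all, 12 transcripts had at least 10 counts in every morpholino library and 0 in both wild-type libraries, and 21 had the reverse.

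With 0 in an arm, folds are bounds against a floor of 3 counts over that arm. marf1 transcript ENSXETT00000012162.3 was at least 60.6-fold lower in morpholino embryos (0 counts over the arm, against 155 in wild type), while the sum over its 2 transcripts differed by -0.02. mief1 transcript ENSXETT00000035183.3 was at least 63.1-fold higher (222 counts in morpholino embryos, against 0), while its sum differed by -0.10. None of these transcripts was called.

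The authors' deposited table for 12 hpf holds 129 transcripts with q under 0.05, of which 89 were higher and 40 lower in morpholino embryos (0.575% and 0.258% of the 15474 with a q). All 8 called here are among them, and in all 129 the arms did not overlap in CPM. Over 12183 transcripts its effects correlated with the edgeR differences across transcripts at 0.946. Both come from the same libraries of 12 hpf, and the sign of the deposited effects was set from their counts. These comparisons are therefore not an independent check. The smallest q in the authors' deposited table, 4.16e-13, is that of an atp12a-like transcript (ENSXETT00000064428.1), which edgeR did not call. It stood at 464, 326 and 462 CPM in morpholino embryos, against 114 and 104 CPM in wild type (1.93, adjusted p = 0.624, edgeR). Among those in the authors' deposited table that edgeR did not call are lama1, a laminin chain of basement membranes, at 127, 138 and 105 CPM against 233 and 245 CPM (-0.95, adjusted p = 0.415, edgeR), and fubp1, a regulator of RNA and transcription, at 594, 741 and 806 CPM against 1322 and 1470 CPM (-0.97, adjusted p = 0.202). In the authors' deposited table map2k1, the ERK kinase MEK, is higher in morpholino embryos, at 267, 354 and 347 CPM against 166 and 171 CPM (0.94, adjusted p = 0.137), as is taf1, a TFIID subunit, at 85.9, 93.0 and 103 CPM against 50.6 and 47.0 CPM (0.94, adjusted p = 0.157).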

How the data were processed

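Poly(A)-selected RNA of whole embryos was measured in 25 libraries, of which 5 are of 12 hpf. Per the submitters' processing notes, the authors used kallisto and sleuth; no version, option or transcriptome build is stated in these sources. For each library the authors' deposited table holds kallisto's estimated counts and TPM; TPM was used only to rank levels. The authors' deposited 12 hpf table holds sleuth p-values, q-values and natural log effects, whose column names give no arm; set against the counts, a positive effect means higher in wild type, so the sign was turned and the scale changed to log2. Transcript identifiers have the Xenopus tropicalis prefix while the labels name Xenopus laevis, so a duplicated gene's copies may share 1 transcript. Symbols came from the 12 hpf table (14700 of 16967 tested transcripts).

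Estimated counts were rounded (25.9% to 30.6% of values per library were not whole) and analysed in R 4.3.3 with edgeR 4.0.16, limma 3.58.1 and DESeq2 1.42.0. filterByExpr with 10 groups left 16967 of 22891 transcripts, and TMM, glmQLFit and Benjamini-Hochberg adjustment followed. All 25 libraries shared the estimate of spread (15 residual degrees of freedom), calls need an adjusted p under 0.05, and SE is the log2 difference over the root of its F. Named transcripts are rnf20 and rnf40, the 4 of smallest p on each of 25 lists, the 15 leading each way, the 5 leading each way in the test against later hours and the 5 most abundant per arm; others named were chosen after their values were seen. The comparison, lists and alternatives were chosen with earlier results of these data known. Lists share 76 symbols. Some genes of the lists are not reported here by name. Alternatives were other scalings, no filter, DESeq2, replicate blocks, sums per symbol and leaving out libraries.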

Additional observations from a re-analysis of the deposited data

Results flagged for a closer look

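In 8 of the 136 named transcripts every morpholino library lay on one side of both wild-type libraries at 12 hpf and on the other side at a later hour. Over all 16967 tested transcripts this was so for 61 at 13 hpf, 157 at 14 hpf, 188 at 15 hpf and 154 at 16 hpf. The 8 were counted over any later hour and these totals over single hours, so the shares cannot be compared. The difference between those single hours was not tested. The difference at 12 hpf was tested against the mean of 13 to 16 hpf, where none of the 8 passed with edgeR (unadjusted p from 0.00228 to 0.0936, adjusted p 0.999983 for each), and 5 of them (ptpn3, ift80, mtmr14, metap1d and slc18a1) were picked by the small p of that test. Values are log2 differences, morpholino minus wild type. A transcript of wac, the adaptor between RNF20 and RNA polymerase II, stood at -0.31 at 12 hpf and 0.25 at 14 hpf, and its sum over 2 transcripts at -0.12 at 12 hpf. A transcript of ift80, an intraflagellar transport protein (ENSXETT00000062674.1), stood at 1.27 at 12 hpf and at -1.02, -0.58 and -0.49 at 13, 15 and 16 hpf, while the sum over its 2 tested transcripts stood at -0.40 at 12 hpf (adjusted p = 0.561, edgeR on sums per symbol), so the sign did not hold for the gene. metap1d, a mitochondrial methionine aminopeptidase, stood at 1.02 at 12 hpf and at -0.80 and -0.95 at 15 and 16 hpf. A transcript of ptpn3, a tyrosine phosphatase (ENSXETT00000007872.3), stood at 1.04 at 12 hpf and -0.78 at 16 hpf, and its sum over 2 transcripts at 0.39 at 12 hpf. mtmr14, a phosphoinositide phosphatase, stood at 1.16 at 12 hpf and -0.38 at 16 hpf. slc18a1, a vesicular monoamine transporter, stood at -0.59 at 12 hpf and at 0.43 and 0.52 at 15 and 16 hpf. A low transcript of pkd2 (ENSXETT00000000709.2, at most 2.61 CPM) stood at -5.9 at 12 hpf and 1.41 at 16 hpf, and its sum over 2 transcripts at -0.36 at 12 hpf. xepsin, with no counts in wild type at 12 hpf, stood at 9.6 at 12 hpf and -1.58 at 16 hpf. For xepsin DESeq2 gave an adjusted p of 9.45e-14 in the test against the later hours, where edgeR gave 0.999983. Its morpholino libraries of 12 hpf were uneven, at 2.75, 0.14 and 12.7 CPM, against 0 CPM in wild type. Its 12 hpf difference was 22.95 by DESeq2 and 9.6 (SE 3.67) by edgeR, so with an arm at 0 its size depended on the method.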

How the results depend on the processing

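The 8 calls at 12 hpf (4 higher, 4 lower) depended on the fit, while their directions held in every setting. Counts higher and lower were 0 and 0 with the 5 libraries of 12 hpf alone, 89 and 68 with DESeq2 (14 against later hours), 68 and 99 with a replicate block shared by both arms, 26 and 34 with a replicate block within arms, 8 and 10 with counts summed per symbol, 335 and 395 without morpholino replicate 3 at any hour, and 27 and 26 without the 5 libraries of 16 hpf, chosen after seeing the data. The cause was not tested. Leaving out 1 library of 12 hpf gave 0 to 3 higher and 0 to 2 lower. With DESeq2's size factors in edgeR the counts were 3 and 4, with upper-quartile factors 5 and 4, with no filter 3 and 3, and without mitochondrial transcripts 4 and 4; of the 8, 7 were still called with the size factors and 6 with no filter. The second dedd transcript (ENSXETT00000008305.3, -0.21) takes the sign of its symbol's sum, 1.46, and of the ift80 transcript ENSXETT00000062674.1 (1.27) the sum is -0.40. No label says whether replicate numbers pair the arms. Deviations of same-numbered morpholino and wild-type libraries correlated at -0.0586 to 0.185 over the hours, and at 0.0625 to 0.185 for replicate 1. With 2 wild-type libraries, whose deviations mirror each other, this cannot decide whether the arms are paired, so the block is only an alternative. With the block within arms, the fitted difference is that between replicate 1 of each arm, the reference of the block. In the shared block the term for replicate 3 covers morpholino libraries only, so it takes up the mean offset of morpholino replicate 3 over the hours. Neither block therefore tests quite the same difference as the main fit. Morpholino replicate 3 of 16 hpf had a TMM factor of 0.673, the lowest of the 25 libraries.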

Other observations

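Of 90 cell cycle and replication transcripts, 17 (18.9%) lay above wild type in all 3 morpholino libraries and 6 (6.67%) below, against 16.3% and 17.5% of all tested, and none was called. gins2, a subunit of the replicative helicase, stood at 32.5, 43.6 and 82.0 CPM in morpholino embryos, against 23.1 and 25.5 CPM in wild type (1.12, adjusted p = 0.563, edgeR). bub1b, a spindle checkpoint kinase, stood at 62.2, 55.4 and 46.0 CPM, against 80.5 and 82.9 CPM (-0.58, adjusted p = 0.326). itln1 and itln2 encode intelectins, and intelectin is secreted by goblet cells of the Xenopus larval skin. Both are on the epidermal list and were named after their values were seen. That list as a whole was not lower: of its 52 tested transcripts, 12 (23.1%) lay above wild type and 9 (17.3%) below, with a median of 0.02. itln1 stood at 11.7, 2.93 and 0 CPM, against 33.1 and 13.1 CPM (-2.24, adjusted p = 0.658), and itln2 at 7.40, 1.82 and 0.133 CPM, against 27.8 and 10.8 CPM (-2.63, adjusted p = 0.626). In both the wild-type libraries differed from each other widely, and replicate 3 was lowest.

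In the myeloid peroxidase gene mpo, morpholino replicates 1 and 2 stood at 46.3 and 46.4 CPM and replicate 3 at 1.79 CPM, against 31.8 and 56.7 CPM in wild type (-0.49, adjusted p = 0.899, edgeR). irf1, an interferon-induced transcription factor, stood at 13.6, 11.7 and 24.7 CPM, against 5.99 and 6.94 CPM (1.37, adjusted p = 0.153). pdx1, the pancreatic and duodenal homeobox gene, stood at 0.524, 0.559 and 0.332 CPM, against 3.1 and 2.83 CPM (-2.64, adjusted p = 0.243).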
